A study of Homo sapiens with 6 samples.

Results

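A set of 10 genes that mark hepatic stellate cells, or keep them quiescent, were read in LX-2 cells with and without fibroblast activation protein α (FAPα). They were chosen by name, as stellate lineage and quiescence markers, and are LHX2, HAND2, TCF21, GATA4, PPARG, GFAP, NGFR, RELN, HGF and CYGB. Each of these 10 symbols matched 1 row among the 60748 genes of the deposited table. RNA was sequenced from LX-2, an established and immortalised human hepatic stellate cell line. LX-2Vector carried the control vector (n = 3 libraries) and LX-2FAP overexpressed FAPα (n = 3), and every library came from cells cultured for 24 h. Per the study's methods, FAPα was introduced stably with a lentivirus and infected cells were selected with puromycin, so each group is 1 selected line and the libraries of a group share it. Nothing in the labels says that the libraries of a group came from separate cultures, so p-values measure only the spread between these libraries, which may be technical.

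Stellate cells lie between hepatocytes and the sinusoidal endothelium. At rest they store vitamin A in lipid droplets and express genes shared with neural cells (GFAP, NGFR, RELN), mesenchymal transcription factors of the embryonic liver (LHX2, HAND2, TCF21, GATA4) and the fat-cell regulator PPARG. After injury, or when plated on plastic, they turn into contractile, collagen-producing cells, and quiescence markers such as PPARG are lost as they do so.

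Total counts ran from 17355700 to 26352060 per library, and 3 counts, the limit that a count of 0 allows, corresponded to 0.114 to 0.173 CPM (counts scaled to a common library size). These limits and the intervals on counts cover counting error only. The overexpressed gene, FAP, had 49, 42 and 55 counts in LX-2Vector replicates 1, 2 and 3 and 14864, 15160 and 14805 counts in LX-2FAP. FAP thus differed by 8.33 on the log2 scale (SE 0.13, adjusted p = 4.47e-16 by the quasi-likelihood test of edgeR), and in every library its count matched the label. Of the 16 stellate markers listed for a check of the cell type, 7 had a mean over 1 FPKM (fragment counts scaled by gene length and by library size) in LX-2Vector. They were VIM, COL1A1, NGFR, PDGFRB, LHX2, RGS5 and ACTA2. LRAT, the enzyme that esterifies retinol for storage, had no count in any library, and DES, the muscle-type filament of rodent stellate cells, had at most 1 count.

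By FPKM, the 10 genes fell into a higher and a lower set. NGFR, GATA4 and LHX2, 3 of the 10, had a mean over 1 FPKM in LX-2Vector. HAND2 was lower, and the 6 others were all under 0.2 FPKM. In counts, however, RELN lay above HAND2, with 66 to 144 a library against 24 to 51. By level, NGFR stood above 67.9% of the 18275 tested genes, GATA4 above 67.7% and LHX2 above 40.2%, whereas HAND2 stood above 14.6%, RELN above 2.02% and PPARG above 0.569%. The median of all tested genes was 3.38 FPKM. The places of RELN and PPARG rest on the deposited gene lengths and would be higher with the shorter lengths of the GENCODE annotation. In the order of mean FPKM, NGFR and GATA4 did not differ beyond the spread of the libraries in either group. GATA4 lay above LHX2, LHX2 above HAND2, HAND2 above RELN and RELN above PPARG with no overlap between libraries of 1 group on the deposited scale. PPARG, HGF, GFAP and CYGB followed, and each of these overlapped its next neighbour in LX-2Vector, as far as CYGB. TCF21 was last, below CYGB in every library.

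**Figure D1:**
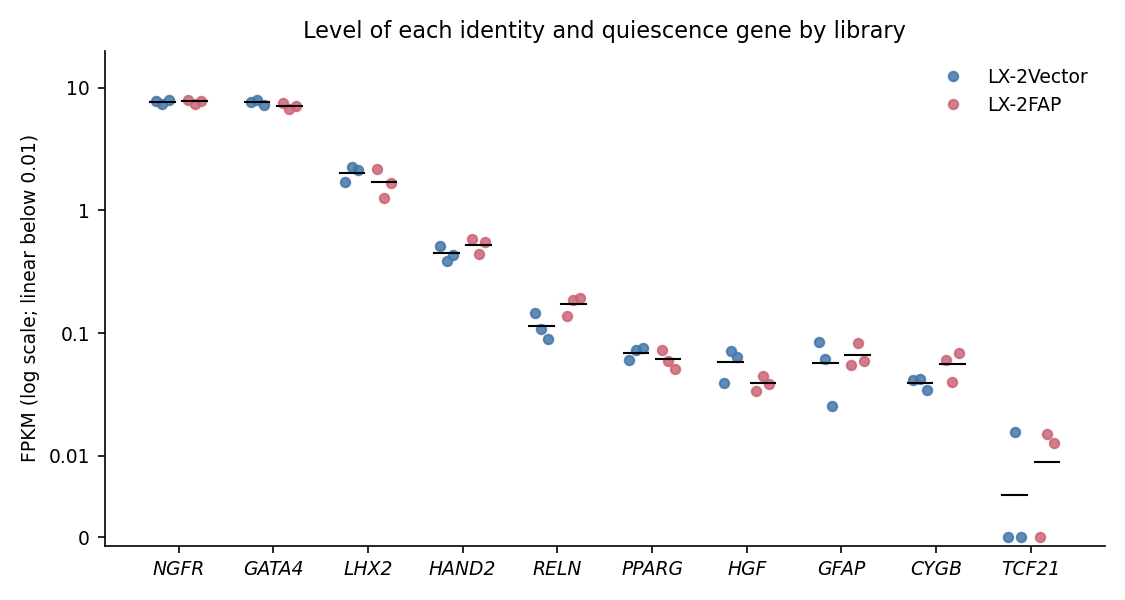
FPKM of the 10 genes (y axis, log scale, linear below 0.01) in each library of LX-2Vector (blue) and LX-2FAP (red), with the group means as black bars and genes ordered by their LX-2Vector mean. NGFR, GATA4 and LHX2 sit above 1 FPKM in every library, the genes from RELN to TCF21 sit under 0.2 FPKM, and no gene has groups that separate completely.

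FPKM divides by gene length, and the length behind the deposited values was not the same as that of GENCODE release 29 for all genes. The deposited RELN value used 35421 bases, against 12642 bases of merged exons in that release, and PPARG used 11981 against 4535. With the GENCODE lengths, RELN would have a mean of 0.321 FPKM and PPARG 0.183 FPKM in LX-2Vector in place of 0.115 and 0.0692 FPKM. The means of the 10 genes kept their order with either length. With the GENCODE lengths, however, HAND2 and RELN overlapped between libraries in both groups, and PPARG and HGF did not overlap in either.

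The DNA before the start sites was compared as a feature that the choice of genes did not use. RefSeq start-site windows on GRCh38.p14 were matched by symbol for 6 of the 10 genes. Those of RELN, HAND2 and TCF21 are shown because they run from rich to poor in CpG and hold the motif matches described after them. HAND2-AS1 and TARID, on the opposite strand, share exon bases with HAND2 and TCF21, so the windows of these 2 genes may also hold transcribed bases of their neighbours. Each line gives the 250 bases before the start, 5′ to 3′ on the strand of the gene, with CpG dinucleotides in capitals.
RELN, chr7:103989659-103989908, minus strand: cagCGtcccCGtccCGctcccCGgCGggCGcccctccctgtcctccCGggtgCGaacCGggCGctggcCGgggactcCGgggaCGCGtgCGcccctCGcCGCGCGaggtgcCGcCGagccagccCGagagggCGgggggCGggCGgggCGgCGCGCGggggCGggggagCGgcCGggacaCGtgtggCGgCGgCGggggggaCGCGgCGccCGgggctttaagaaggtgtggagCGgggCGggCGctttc
HAND2, chr4:173530230-173530479, minus strand: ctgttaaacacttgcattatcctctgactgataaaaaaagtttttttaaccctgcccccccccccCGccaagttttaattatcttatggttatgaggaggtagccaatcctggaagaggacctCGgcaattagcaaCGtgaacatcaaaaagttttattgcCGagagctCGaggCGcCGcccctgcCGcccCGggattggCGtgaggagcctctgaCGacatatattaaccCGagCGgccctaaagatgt
TCF21, chr6:133888863-133889112, plus strand: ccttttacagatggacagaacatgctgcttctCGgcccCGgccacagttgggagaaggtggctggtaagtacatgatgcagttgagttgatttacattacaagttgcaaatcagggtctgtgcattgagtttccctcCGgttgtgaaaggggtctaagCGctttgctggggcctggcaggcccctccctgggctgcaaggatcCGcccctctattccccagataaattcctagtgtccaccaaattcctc

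The RELN window held 43 CpG dinucleotides, and 98.98% of 35116 start-site windows held fewer. The LHX2 window held 25, with 78.4% of windows below it. The HAND2 window held 13, the HGF window 6 and the TCF21 window 5, beside a median of 11 over all windows, and the 6 windows of PPARG held 0 to 10. The windows of LHX2 and HGF, and most of those of PPARG, lie inside the GENCODE bounds of their own genes. They may thus hold transcribed bases of these genes. RELN, with the richest window, was thus low in FPKM. The 5 other genes stood in the same order by mean FPKM and by CpG count only where a PPARG window with 8, 9 or 10 was taken. The poorest window of PPARG held 0, and PPARG and HGF overlapped in LX-2Vector on the deposited scale. A relation between CpG count and level was not tested. The letters AGATAA, a site of the type that GATA factors bind, were found on either strand in 3 of the 11 windows of these genes, those of HAND2 and TCF21 and 1 of the 6 of PPARG, and in 9.17% of all windows. CANNTG, the E-box of helix-loop-helix factors, was found in 9 of the 11 windows, of which PPARG holds 6 that in part overlap, and in 61.8% of all windows. TAATTA, a homeodomain core, was found in 1 of the 11, that of HAND2, and in 4.35% of all windows. A match is a description of the letters and not a site in use.

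The question was then whether the level of any of these genes differs between LX-2FAP and LX-2Vector. Of the 10, 7 passed the filter on low counts and were tested with all other genes. With the edgeR quasi-likelihood test 0 of the 7 were called (adjusted p under 0.05), where 5.29% of all tested genes were called. One gene, RELN, had an unadjusted p under 0.05, where 22.2% of all tested genes did. DESeq2 called 1 of the 7, RELN, gave no adjusted p for 4, and limma-trend on FPKM called 0. Of all 18275 genes DESeq2 called 5.64%, counting those given no adjusted p, and limma-trend called 0.0109%. By the edgeR fit 4 of the 7 were higher and 3 lower in LX-2FAP, with a median log2 fold change of 0.04, beside -0.01 over all tested genes. In normalised CPM the groups overlapped for all 7 tested genes, whereas they did not overlap for 26.4% of all tested genes.

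**Figure D2:**
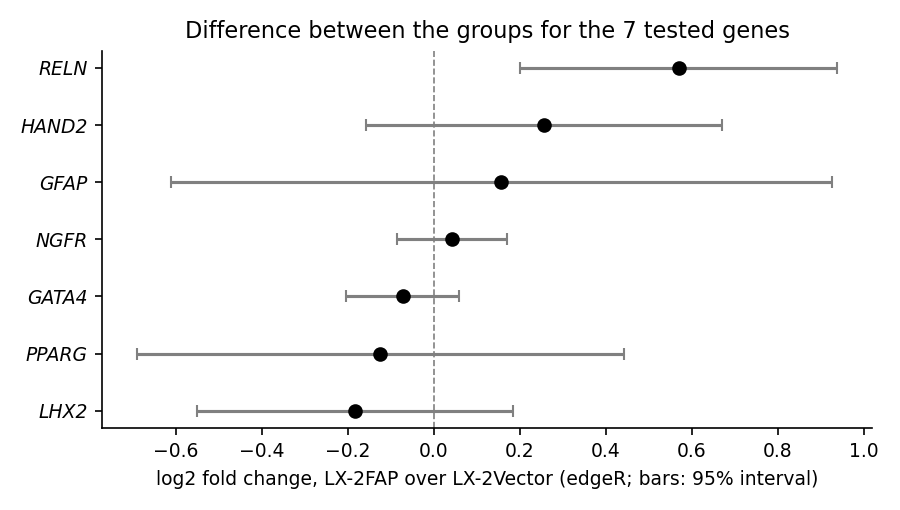
Log2 fold change of LX-2FAP over LX-2Vector (x axis) for the 7 tested genes, from the edgeR fit, with 95% intervals as bars. The interval of RELN, 0.20 to 0.94, lies above 0, and the intervals of the 6 other genes include 0.

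Among the transcription factors, GATA4 was the most abundant. GATA4 is a zinc-finger factor of the heart and of the embryonic liver mesenchyme that restrains activation of stellate cells in mice. GATA4 (ENSG00000136574, GRCh38 chromosome 8, 11676959 to 11760002) had 7.61, 7.92 and 7.26 FPKM in LX-2Vector replicates 1, 2 and 3 and 7.44, 6.69 and 7.07 FPKM in LX-2FAP. LX-2FAP replicate 1 lay within the LX-2Vector range and replicates 2 and 3 below it. The GATA4 log2 fold change was -0.07 (SE 0.06, edgeR adjusted p = 0.541), with a 95% interval from -0.20 to 0.06, that is, from 0.868 to 1.04 times the LX-2Vector level.

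LHX2 is a LIM-homeodomain factor whose loss in mice leads to stellate activation and liver fibrosis. LHX2 (ENSG00000106689, chromosome 9, 124001670 to 124033301) had 1.69, 2.24 and 2.15 FPKM in LX-2Vector and 2.18, 1.25 and 1.66 FPKM in LX-2FAP. The highest LX-2FAP library, replicate 1, lay between the upper LX-2Vector libraries and the others below all of them. The log2 fold change of LHX2 was -0.18 (SE 0.17, edgeR adjusted p = 0.589, 95% interval -0.55 to 0.19). With 1 library left out it ran from -0.41 without LX-2FAP replicate 1 (edgeR adjusted p = 0.141) to -0.02 without LX-2FAP replicate 2 (edgeR adjusted p = 0.971). LHX2 shares 3.96% of its exon bases with AC006450.2 on the opposite strand, which had at most 4 counts a library.

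HAND2 is a basic helix-loop-helix factor of the heart and neural crest. HAND2 (ENSG00000164107, chromosome 4, 173524969 to 173530229) had 49, 24 and 33 counts in LX-2Vector and 51, 29 and 42 counts in LX-2FAP, or 0.516, 0.384 and 0.435 FPKM against 0.585, 0.442 and 0.549 FPKM. The groups overlapped. The HAND2 log2 fold change was 0.26 (SE 0.20, edgeR adjusted p = 0.482, 95% interval -0.16 to 0.67). The gene shares 24.1% of its exon bases with HAND2-AS1, transcribed from the opposite strand, which had 114, 84 and 116 counts in LX-2Vector and 114, 88 and 103 in LX-2FAP. The use of strand in counting was not stated, so reads of HAND2 and HAND2-AS1 in the shared bases cannot be told apart.

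PPARG, the nuclear receptor that drives fat-cell genes and is high in quiescent stellate cells, was low in counts but above the limit of 3 counts in every library. PPARG (ENSG00000132170, chromosome 3, 12287368 to 12434356) had 19, 15 and 19 counts in LX-2Vector and 21, 13 and 13 counts in LX-2FAP. In CPM, replicates 1 and 2 of LX-2FAP lay within the LX-2Vector range and replicate 3 below it. The log2 fold change of PPARG was -0.12 (SE 0.27, edgeR adjusted p = 0.854), and ran from -0.28 without LX-2FAP replicate 1 to -0.01 without LX-2FAP replicate 3. Its 95% interval, 0.62 to 1.36 times the LX-2Vector level, leaves a sizeable change in either direction undetectable at this depth. TCF21, a helix-loop-helix factor of visceral mesenchyme, was under the filter on low counts. TCF21 (ENSG00000118526, chromosome 6, 133889138 to 133895553) had 0, 1 and 0 counts in LX-2Vector and 0, 1 and 1 counts in LX-2FAP, all under the limit of 3 counts. TARID, which shares 30.4% of TCF21 exon bases on the opposite strand, also had at most 1 count a library.

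The second set of markers are genes first known from the nervous system. NGFR, the low-affinity neurotrophin receptor, stood level with GATA4 at the top of the 10 genes in FPKM. NGFR (ENSG00000064300, chromosome 17, 49495293 to 49515017) had 7.78, 7.32 and 7.86 FPKM in LX-2Vector and 8.004, 7.43 and 7.78 FPKM in LX-2FAP. Libraries of both groups were interleaved. The log2 fold change of NGFR was 0.04 (SE 0.06, edgeR adjusted p = 0.73), with the narrowest interval of the 7 genes, from 0.943 to 1.13 times the LX-2Vector level. NGFR shares 22.3% of its exon bases with AC015656.1 and 4.87% with AC006487.1, both on the opposite strand and with at most 2 and 7 counts a library.

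GFAP, the intermediate filament of astrocytes, had 25, 12 and 6 counts in LX-2Vector and 15, 17 and 14 counts in LX-2FAP (ENSG00000131095, chromosome 17, 44903161 to 44916937). The LX-2Vector libraries spanned the whole range and enclosed all LX-2FAP libraries in CPM. The GFAP log2 fold change was 0.16 (SE 0.36, edgeR adjusted p = 0.85, 95% interval -0.61 to 0.93). It turned to -0.18 without LX-2Vector replicate 3 and to -0.02 without LX-2FAP replicate 2, so its direction is not given. GFAP shares 18.4% of its exon bases with CCDC103 on the opposite strand, which had 4 to 8 counts a library, and the same bases with FAM187A, which had none.

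RELN encodes reelin, a large secreted glycoprotein that guides migrating neurons and that quiescent and activated stellate cells of rodent liver both make. RELN (ENSG00000189056, chromosome 7, 103471784 to 103989516) had 137, 66 and 67 counts in LX-2Vector replicates 1, 2 and 3 and 118, 119 and 144 counts in LX-2FAP. In normalised CPM these were 5.18, 3.76 and 3.15 against 4.92, 6.62 and 6.87. The 2 lowest values were LX-2Vector and the 2 highest LX-2FAP, and the first replicates crossed, LX-2Vector replicate 1 lying just above LX-2FAP replicate 1. LX-2Vector averaged 4.03 ± 1.04 CPM, and LX-2FAP averaged 6.14 ± 1.06 CPM (SD, n = 3 in both). The log2 fold change of RELN was 0.57 (SE 0.17, 95% interval 0.20 to 0.94), the largest in size of the 7 tested genes, with an unadjusted p of 0.00479 and an adjusted p of 0.0658 from edgeR. RELN therefore did not pass the test over all genes.

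The call on RELN depended on the processing, while its direction did not. Its log2 fold change was above 0 in all 14 alternatives, from 0.07 with limma-trend on log2(FPKM + 1), a scale that compresses low genes, to 0.83. It was called in 4 of them. These were the DESeq2 Wald test (0.60, adjusted p = 0.041), edgeR with no filter on low counts (0.57, adjusted p = 0.00249), edgeR without LX-2Vector replicate 1 (0.83, adjusted p = 0.0374) and edgeR without LX-2FAP replicate 1 (0.72, adjusted p = 0.0138). Of all their genes, these settings called 5.64%, 3.9%, 2.09% and 10.4%. The DESeq2 share is over all 18275 genes, including those given no adjusted p. It is thus lower than the share of genes that were given one. The 10 settings in which no marker was called had these shares: 5.76% with DESeq2 size factors in edgeR, 5.73% with library size alone, 6.32% with at least 10 counts in every sample, 5.34% with the replicate block, 0.0109% with limma-trend at either pseudocount, 3.54% and 2.12% on leaving out LX-2Vector replicate 2 or 3, and 0.687% and 0.138% on leaving out LX-2FAP replicate 2 or 3. The libraries whose removal gave a call were the ones that crossed. Over the 14 alternatives the adjusted p ran from 0.00249 to 0.311.

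**Figure D3:**
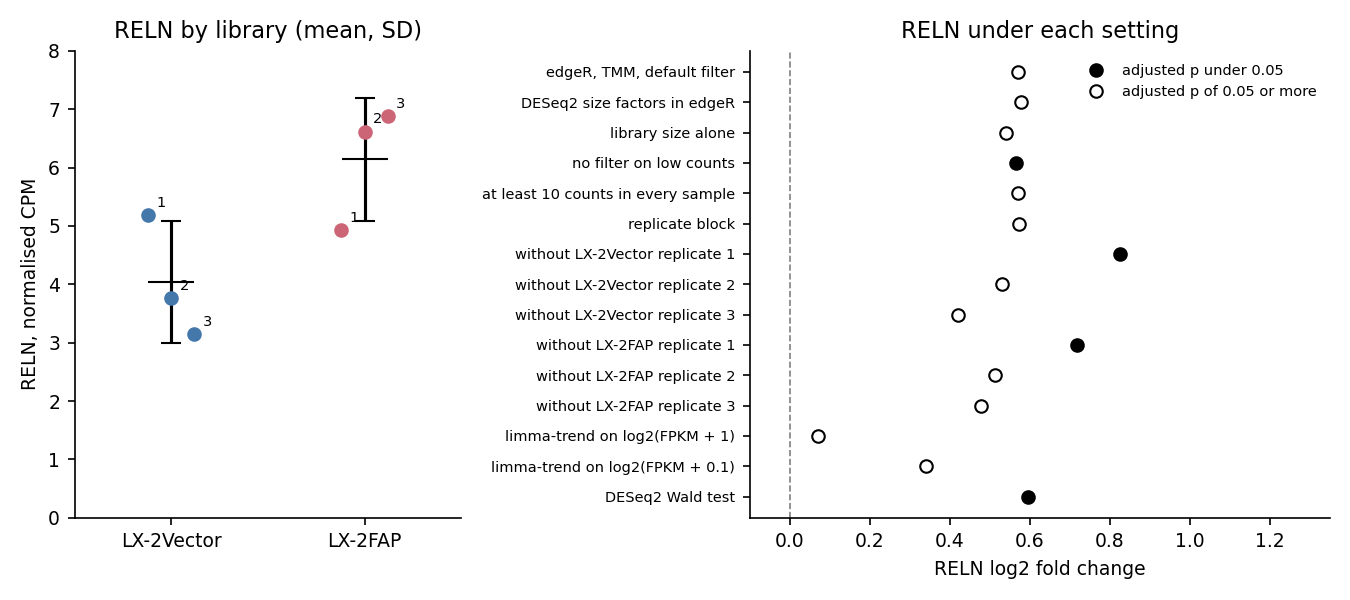
Left, RELN in each library in normalised CPM (points, numbered by replicate) with the mean and SD of each group. Right, the RELN log2 fold change under each setting, filled where the adjusted p was under 0.05; the first replicates of the groups cross at 5.18 and 4.92 CPM, and 4 of the 14 alternatives give a call.

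HGF and CYGB were under the filter. With no filter, the edgeR adjusted p was 0.694 for HGF, 0.782 for CYGB and 0.882 for TCF21. HGF, hepatocyte growth factor, is the ligand of the receptor MET and is made in normal liver mainly by stellate cells. HGF (ENSG00000019991, chromosome 7, 81699008 to 81770438) had 10, 12 and 13 counts in LX-2Vector and 8, 8 and 8 counts in LX-2FAP. In CPM, LX-2Vector replicate 1 lay within the range of LX-2FAP and the 2 others above it. Summed over the group, 24 counts against 35 gave 0.698 times the LX-2Vector share of counts, with an exact 95% interval of 0.397 to 1.21 for counting error alone, and the 2-sided exact permutation test on CPM gave p = 0.3, where 3 libraries against 3 allow no less than 0.1. CYGB, cytoglobin, is a haem protein that marks stellate cells in liver. CYGB (ENSG00000161544, chromosome 17, 76527356 to 76551175) had 3, 2 and 2 counts in LX-2Vector and 4, 2 and 4 in LX-2FAP. At 2 to 4 counts a library, a difference in CYGB was not detectable at this depth. CYGB shares 8.41% of its exon bases with PRCD on the opposite strand and 10.2% with AC015802.4 on its own strand, each with more counts than CYGB in LX-2Vector.

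The level of GATA4, which had the highest mean count of the tested markers (698.5), was compared with those of the 11555 other genes whose counts averaged 100 or more. Across the 6 libraries the genes most like GATA4 by Pearson correlation of log2 CPM were TSR3 (r = 0.976), ENSG00000268362, to which the deposited annotation gives no symbol (r = 0.9752), and C22orf39 (r = 0.967). GATA4 spanned 0.21 on the log2 scale over these libraries, and 54 genes had a correlation over 0.9 with it. Among 11555 genes, correlations over only 6 libraries can be this high without a link between the genes. Whether these exceed that level was not tested.

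The ligands, receptors, cofactors and sister genes of these markers were read from 9 lists. Of the 153 listed genes that had a measured row, 118 were tested, and 11 were called, 1 higher and 10 lower in LX-2FAP. That was 9.32% of those tested, beside 5.29% of all tested genes, of which 2.57% were called higher and 2.73% lower. The lists were chosen with earlier results of these data known, so the 2 shares are not a test of the lists. The split over all genes was 469 higher and 498 lower, and 239 higher and 809 lower with library size alone. Outside the activation list, 5 of 100 tested genes were called. An unadjusted p under 0.05 in edgeR was reached by 32 of the 118 (27.1%), beside 22.2% of all tested genes. The lists held 7 to 21 tested genes each. At a share of 5.29%, a list of that size with no call is therefore not read as unchanged. None of the 11 was called without LX-2FAP replicate 3 or with limma-trend on FPKM. With other libraries left out, the number of partner genes called was 6 without LX-2Vector replicate 1, 10 without its replicate 2 and 5 without its replicate 3, and 18 and 2 without LX-2FAP replicates 1 and 2.

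**Figure D4:**
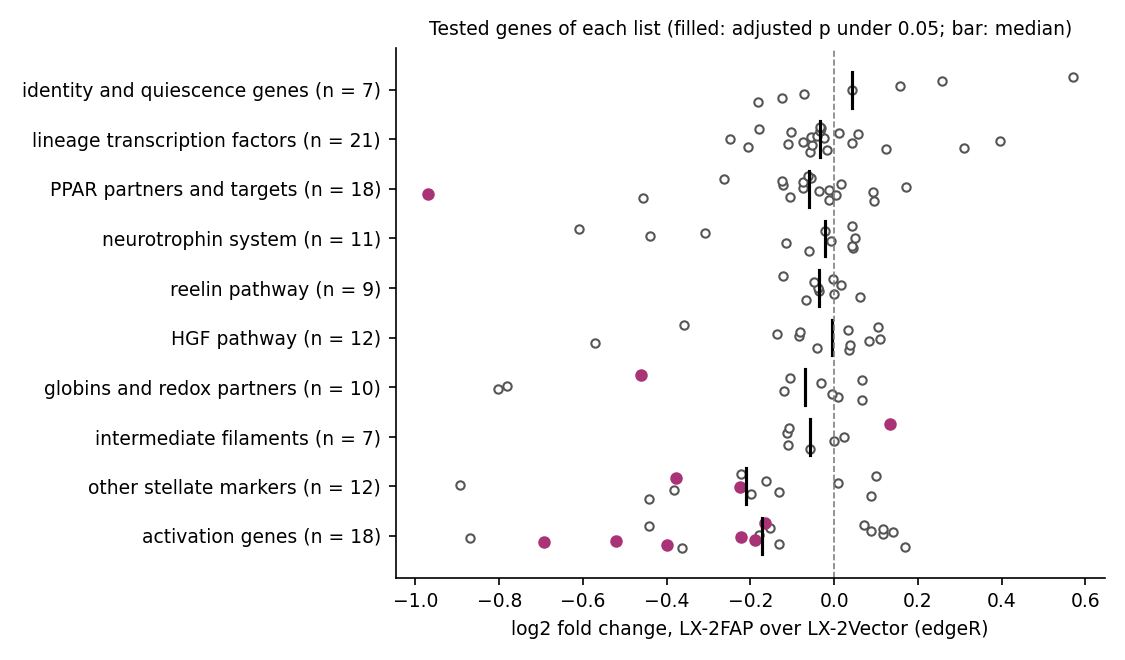
Log2 fold change of LX-2FAP over LX-2Vector (x axis) for each tested gene of the 9 lists and for the 7 tested identity and quiescence genes, filled where the edgeR adjusted p was under 0.05, with the median of each list as a bar. The identity and quiescence genes have a median of 0.04 and no filled point, and the activation genes a median of -0.17 with 6 filled points.

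Among 21 tested lineage transcription factors none was called by edgeR, 2 had an unadjusted p under 0.05, and the median log2 fold change was -0.03. NR2F2, an orphan nuclear receptor of venous and mesenchymal cells, was the most abundant, at 69.3 ± 2.95 FPKM in LX-2Vector and 65.4 ± 3.90 FPKM in LX-2FAP (SD, n = 3). GATA6, the sister of GATA4, had 6 to 18 counts a library. Of 18 tested PPAR partners and targets, 1 was called lower and 0 higher, and 2 had an unadjusted p under 0.05 in edgeR. ADIPOR2, an adiponectin receptor, was the most abundant at 42.4 ± 1.36 FPKM in LX-2Vector. The other receptors of the PPAR family were above PPARG, PPARD at 13.8 ± 1.25 FPKM and PPARA at 3.93 ± 0.0826 FPKM in LX-2Vector. FABP4, a fat-cell target of PPARG, had 1 count in all libraries together.

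The called gene of that list was CEBPD, a leucine-zipper factor of early fat-cell differentiation and of the acute-phase response. CEBPD had 80, 62 and 110 counts in LX-2Vector and 61, 32 and 32 counts in LX-2FAP, and the groups did not overlap in CPM. Its level fell, from 3.91 ± 1.12 CPM in the control group to 1.95 ± 0.530 CPM with FAPα (SD, n = 3). The fitted log2 difference in CEBPD was -0.97 with an SE of 0.22 (adjusted p = 0.0233, edgeR). DESeq2 did not call CEBPD. It gave no adjusted p to LHX2, which had a higher mean CPM in both groups, so this cannot be read as a negative test. The edgeR call of CEBPD was lost on leaving out replicate 3 of LX-2Vector or replicate 2 or 3 of LX-2FAP. Its adjusted p was at most 0.149 over the alternatives that gave one.

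For the neurotrophin system around NGFR, none of 11 tested genes was called by edgeR and 3 had an unadjusted p under 0.05. BEX3, which binds the receptor's intracellular part, was the most abundant at 106 ± 6.44 FPKM in LX-2Vector and 96.2 ± 4.84 FPKM in LX-2FAP. The ligand BDNF had 2.27 ± 0.192 FPKM in LX-2Vector, and the coreceptor SORT1 17.2 ± 0.163 FPKM. NTRK2, the high-affinity receptor for BDNF, had no count in any library.

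The reelin pathway had 9 tested genes, of which edgeR called none and none had an unadjusted p under 0.05. Over all tested genes these shares were 5.29% and 22.2%. The adaptor CRK was the most abundant at 45.8 ± 1.33 FPKM in LX-2Vector. The reelin receptors LRP8 and VLDLR had 4.23 ± 0.042 and 0.958 ± 0.0597 FPKM, with log2 fold changes of -0.04 and -0.12. DAB1, the adaptor through which neurons pass on the reelin signal, had 1 count in all 6 libraries together.

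The HGF pathway had 12 tested genes, none of them called by edgeR and 2 with an unadjusted p under 0.05. MET, the HGF receptor, was the most abundant, at 46.4 ± 1.27 FPKM in LX-2Vector and 49.1 ± 1.34 FPKM in LX-2FAP. Its log2 fold change was 0.11 (edgeR adjusted p = 0.117). The receptor was thus present at a high level in cells with 8 to 13 counts of its ligand a library.

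Of 10 tested globins and redox partners of CYGB, 1 was called. SOD2, the mitochondrial superoxide dismutase, fell from a control level of 508.5 ± 68.5 CPM to 368.9 ± 47.1 CPM (SD, n = 3), with a fitted log2 difference of -0.46, an SE of 0.09 and an adjusted p of 0.00957 (edgeR), and with no overlap between the groups. By FPKM in LX-2Vector, the most abundant gene of the list was HBB, the β chain of adult haemoglobin, with 7953, 5955 and 12168 counts in LX-2Vector and 14280, 8352 and 2614 counts in LX-2FAP. HBB thus differed several-fold within LX-2FAP, and its highest and lowest library belonged to the same group. HBA2 had 187 to 992 counts a library and HBA1 68 to 385. HBA1 and HBA2 are near-identical copies, so the division of reads between them is uncertain.

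Of 7 tested intermediate filament genes, the family of GFAP, VIM (vimentin) was the most abundant and the only one called. In edgeR, 2 of the 7 had an unadjusted p under 0.05. VIM rose from 301 ± 7.56 to 323.5 ± 6.14 FPKM (SD, n = 3), or by 0.13 on the log2 scale with an SE of 0.03 (adjusted p = 0.0372, edgeR). VIM lost its call with library size alone and in 5 of the 6 fits that left out 1 library, keeping it in the fit without LX-2Vector replicate 3, and its adjusted p reached 0.249.

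Of 12 other stellate markers tested, 2 were called lower. In edgeR, 5 of the 12 had an unadjusted p under 0.05, where 22.2% of all tested genes did. PDGFRB, the receptor through which PDGF drives stellate proliferation, had 702, 389 and 549 counts in LX-2Vector and 520, 310 and 386 counts in LX-2FAP. PDGFRB fell by 0.38 on the log2 scale with an SE of 0.09 (adjusted p = 0.0269, edgeR), its mean being 24.9 ± 2.35 CPM without and 19.1 ± 2.31 CPM with FAPα (SD, n = 3). ECM1, a secreted matrix protein and by LX-2Vector FPKM the most abundant of this list, had 87.9 ± 3.71 CPM without and 75.1 ± 7.32 CPM with FAPα (SD, n = 3) and fell by 0.23 on the log2 scale (SE 0.06, adjusted p = 0.0443, edgeR). PDGFRB was called in 8 and ECM1 in 7 of 14 alternatives. Both calls were lost on leaving out replicate 1 or 3 of LX-2Vector or replicate 2 or 3 of LX-2FAP, and that of ECM1 also without LX-2Vector replicate 2, with adjusted p up to 0.154 for PDGFRB and 0.253 for ECM1. The median log2 fold change of this list was -0.21.

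The activation list, which marks the opposite state to quiescence, had 18 tested genes, 12 lower and 6 higher, with a median log2 fold change of -0.17. In edgeR, 13 of the 18 had an unadjusted p under 0.05, where 22.2% of all tested genes did. Of the 18, 6 were called lower and 0 higher, beside 2.73% and 2.57% of all tested genes. These were the fibrillar collagens COL1A1, COL3A1 and COL5A1, the matrix protein FN1, the crosslinking enzyme LOXL2 and the protease inhibitor TIMP2. Their log2 fold changes were -0.40, -0.69, -0.52, -0.19, -0.22 and -0.17. ACTA2, the smooth muscle actin of activated stellate cells, had 91, 69 and 87 counts in LX-2Vector and 76, 49 and 61 counts in LX-2FAP, with an edgeR adjusted p of 0.145. Of the 6 calls, that of COL3A1 was lost among the edgeR fits without LX-2FAP replicate 3 alone. The calls of the 5 other genes were also lost without LX-2FAP replicate 2, those of COL1A1, TIMP2, LOXL2 and FN1 without LX-2Vector replicate 1, those of COL5A1, TIMP2, LOXL2 and FN1 without LX-2Vector replicate 3, and that of TIMP2 without LX-2Vector replicate 2. DESeq2 did not call COL1A1 and COL5A1, and edgeR with DESeq2 size factors did not call FN1. The highest adjusted p of these 6 genes over the alternatives was 0.228, for FN1. Whether the activation list differed from the 10 identity and quiescence genes was not tested.

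Markers of other liver cells were low for some types and not for others. The 6 hepatocyte genes summed to 2.67 to 3.07 FPKM in LX-2Vector and 2.16 to 2.40 FPKM in LX-2FAP, of which only SERPINA1 was over 1 FPKM, with TTR at 0 in all libraries. The 6 sinusoidal endothelial genes summed to 0.846 to 1.04 and 0.645 to 0.840 FPKM, with CLEC4G at 0 and none over 1 FPKM. The 6 Kupffer cell and leukocyte genes summed to 2.67 to 2.91 and 2.46 to 2.61 FPKM, with 1 over 1 FPKM. Of 4 Schwann cell and neural crest genes, which share NGFR and GFAP with stellate cells, 1 was over 1 FPKM, and the sums were 2.51 to 3.31 and 2.60 to 2.88 FPKM. The 4 cholangiocyte genes summed to 16.6 to 17.9 and 16.2 to 18.4 FPKM, the 4 smooth muscle genes to 15.1 to 17.7 and 16.4 to 17.2 FPKM and the 7 portal fibroblast and mesothelial genes to 24.97 to 28.7 and 19.5 to 22.9 FPKM. The last 3 sums came mainly from SOX9 at 15.4 ± 1.03 FPKM, SMTN at 14.4 ± 1.24 FPKM and FBLN2 at 23.9 ± 1.93 FPKM in LX-2Vector (SD, n = 3), each of them above NGFR. Of the 19 tested genes of these 7 lists 2 were called, VWF and FBLN2, both lower, beside 2.73% of all tested genes called lower. Their part in the results on the 10 genes was not tested. In RNA from whole cultures, fewer cells of a type and less RNA per cell cannot be told apart.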

How the data were processed

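RNA was sequenced in 6 LX-2 libraries. The labels name rRNA depletion, and the methods of the study also name poly(A) isolation. The authors aligned reads with HISAT2 2.0.5, counted reads per gene with featureCounts 1.5.0-p3 and deposited whole-number counts, not normalized. The authors also deposited FPKM values that they computed from gene length and count. The submitters' processing notes list the build hg18. The annotation release and strand setting are not given in the sources used here. GENCODE release 29 (GRCh38) held all 10 identifiers and gave the coordinates and exon lengths. Groups and replicate numbers came from the titles.

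Counts were tested for all genes with edgeR 4.0.16 (quasi-likelihood, TMM, no covariate, minimum count 10, minimum total 15), with Benjamini-Hochberg adjustment over 18275 genes. SEs were derived from the test statistic. CPM values use TMM-scaled library sizes. On counts simulated for these 18275 genes the same test recovered 62% of genes raised 1.5-fold, 94% of those raised 2-fold and 80% of those lowered to 0.5 times. The simulation used the dispersion trend in place of each gene's own dispersion and changed genes picked at random from all levels. These rates are therefore not the power for the low-count markers. Alternatives used DESeq2 1.42.0, limma 3.58.1 on log2(FPKM + 1) and log2(FPKM + 0.1), other scalings and filters, the replicate number as a block and each library left out. The block was not taken as a pairing.

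The 10 genes and the lists were chosen with earlier results of these data known. Named are the 10 genes, FAP, the most abundant and every called gene of each list of partners, genes sharing exon bases with one of the 10, and the 3 genes most like GATA4. Some genes that this rule would name are not reported here. Other genes, and the 3 windows shown, were picked after their values were seen. NGFRAP1, an older name of BEX3, matched no row, and RGS5, with 2 rows, was read from the one with more counts. No 2 libraries of a group agreed within sampling noise (chi-square over its degrees of freedom, 2.05 to 4.88).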

Additional observations from a re-analysis of the deposited data

How the results depend on the processing

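Of the 7 tested identity and quiescence genes, the 6 other than RELN gave 83 values over the alternatives. None of the 83 was called, but 4 of them, from DESeq2, had no adjusted p and could not be. In direction, 81 were unchanged and 2 turned, both of GFAP. Its value went to -0.18 without LX-2Vector replicate 3 and to -0.02 without LX-2FAP replicate 2. It ranged from -0.18 to 0.65 when 1 library was left out. Member genes called was 1 (RELN) with DESeq2 and with no filter on low counts, and ran from 0 to 1 when 1 library was left out. RELN had a log2 fold change of 0.57 with no filter, 0.60 with DESeq2, and 0.42 to 0.83 when 1 library was left out. The GENCODE exon lengths, added after seeing the data, moved the LX-2Vector mean of RELN to 0.321 and of PPARG to 0.183 FPKM. Over the fits that left out 1 library, the number of genes called was between 26 and 1949, with 14 to 892 genes called higher, 12 to 1057 genes called lower and 0 to 18 partner genes called. Leaving out LX-2FAP replicate 3 gave the lowest number of each and leaving out LX-2FAP replicate 1 the highest. On leaving out LX-2FAP replicate 3, 22 of 121 partner genes (18.2%) had an unadjusted p under 0.05, beside 14.2% of all genes in that fit. Limma-trend gave 2 genes called with either pseudocount, 1 of the genes called higher and 1 of the genes called lower, and 0 partner genes called, with 27 of 118 (22.9%) at an unadjusted p under 0.05 beside 20.04% and 19.9% of all genes at pseudocounts of 1 and 0.1. No filter gave 1606 genes called, 929 genes called lower and 19 partner genes called. Library size alone gave 239 genes called higher and 809 genes called lower. The cause of these differences was not tested.

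FAP stayed called in all alternatives. With the replicate number as a block, 975 genes and 0 of the 7 tested markers were called, and the RELN log2 fold change was 0.57 (edgeR adjusted p = 0.102). The correlations of deviations of same-numbered libraries were -0.0389, 0.0436 and -0.00962, so the numbers were not taken to pair the libraries. Depth limited GFAP, PPARG, HGF, CYGB and TCF21, with at most 25 counts a library.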
